A study of Mus musculus with 20 samples.

Results

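The 29 genes described here encode enzymes and regulators of cholesterol and fatty acid synthesis. They were chosen as a list of mouse gene symbols, and all 29 were found by Ensembl ID among the 39017 genes of the table. They were grouped by role into the mevalonate arm (7 genes), the sterol arm (11 genes), sterol sensing and transport (6 genes) and the fatty acid arm (5 genes). The libraries were made from bone marrow of mice transplanted with T lineage acute lymphoblastic leukemias induced by insertional mutagenesis (IM-induced T-ALLs). All leukemias arose in C57Bl/6 x 129Sv/Jae F1 mice injected as newborns with the retrovirus MOL4070LTR. The labels do not give a genotype for each leukemia, and genotype is not used here. Recipients were irradiated wild-type mice of the same background, so the marrow could still hold host cells.

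The 9 leukemias compared are 20M, 2M, 5C, 73A, 73M, 78A, 8633, JW14 and JW81, each with 2 libraries from mice given the same leukemia. Column names mark 1 library of each pair DEX and the other VEH. Neither the labels nor the study's methods explain these letters, no agent, dose or time is given, and they are used here as column names. Each leukemia derived from a single primary tumor and had a single mouse or library per column name, so *P* values across leukemias measure the spread between these 9 pairs.

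Cells make cholesterol from acetyl-CoA through mevalonate, farnesyl pyrophosphate, squalene and lanosterol, and fatty acids from the same acetyl-CoA through malonyl-CoA. The SREBP transcription factors switch on both pathways. They are held in the endoplasmic reticulum by INSIG proteins, which retain their escort SCAP when sterols are plentiful, and are cut free in the Golgi when sterols fall. Dividing lymphocytes use both pathways to build membranes. SREBPs bind sterol regulatory elements near start sites, often beside CCAAT boxes bound by NF-Y.

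Sequences upstream of start sites are shown for 5 members whose levels are described below, with the CCAAT box (CCAAT, or ATTGG on the other strand) and the sterol regulatory element form TCACNCCAC (N is any base) in capitals. Each is the 250 bases before the RefSeq start site on GRCm38.p6, written 5′ to 3′ along the gene. For *Insig2*, which has more than 1 start site, the outermost is shown.
Hmgcs1 (chr13:119690101-119690350, plus strand): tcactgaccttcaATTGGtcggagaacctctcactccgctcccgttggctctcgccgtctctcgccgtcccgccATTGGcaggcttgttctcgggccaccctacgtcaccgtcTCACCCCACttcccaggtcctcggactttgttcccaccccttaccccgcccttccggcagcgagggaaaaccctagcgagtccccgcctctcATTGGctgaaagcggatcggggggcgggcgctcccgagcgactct
Idi1 (chr13:8885356-8885605, plus strand): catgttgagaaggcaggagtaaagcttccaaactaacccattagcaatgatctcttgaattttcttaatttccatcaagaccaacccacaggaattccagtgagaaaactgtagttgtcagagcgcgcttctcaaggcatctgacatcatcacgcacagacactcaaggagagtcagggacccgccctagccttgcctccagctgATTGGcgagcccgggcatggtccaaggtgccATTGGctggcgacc
Insig2 (chr1:121332590-121332839, minus strand): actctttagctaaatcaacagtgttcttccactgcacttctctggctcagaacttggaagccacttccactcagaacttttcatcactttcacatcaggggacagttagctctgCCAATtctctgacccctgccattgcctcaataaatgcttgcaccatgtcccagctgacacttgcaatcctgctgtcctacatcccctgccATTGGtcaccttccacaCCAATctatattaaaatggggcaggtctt
Fasn (chr11:120824548-120824797, minus strand): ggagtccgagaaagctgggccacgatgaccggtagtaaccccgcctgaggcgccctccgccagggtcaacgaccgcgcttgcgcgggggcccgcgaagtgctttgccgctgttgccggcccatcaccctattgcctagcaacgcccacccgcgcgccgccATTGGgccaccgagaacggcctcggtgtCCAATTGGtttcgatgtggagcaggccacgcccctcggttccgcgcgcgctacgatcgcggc
Acly (chr11:100528001-100528250, minus strand): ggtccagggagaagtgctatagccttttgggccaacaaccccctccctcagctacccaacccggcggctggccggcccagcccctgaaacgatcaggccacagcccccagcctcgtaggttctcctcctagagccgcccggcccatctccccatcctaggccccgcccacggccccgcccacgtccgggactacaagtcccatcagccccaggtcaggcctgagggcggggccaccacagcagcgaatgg

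A promoter window of 300 bases (250 before and 50 after the start) was matched for 23 of the 29 members, as 31 windows. *Fdps*, *Fdft1*, *Sqle*, *Stard4*, *Scd1* and *Scd2* were not matched. Searched on both strands, CCAAT occurred in at least 1 window of 20 of the 23 members (87.0%) and in 41.1% of the 27025 genes with a window. Counted by window, it was in 67.7% of member windows and 37.4% of all windows. All 9 matched sterol arm genes held it, and the matched members without it were *Acat2*, *Scap* and *Acaca*. The GC box GGGCGG was also in 20 of the 23 members, against 38.2% of all genes. TCACNCCAC was found in 1 member, *Hmgcs1*, and in 1.44% of all genes. The E box CACGTG was in 5 members (21.7%) and 8.09% of genes. The core of the glucocorticoid response element, ACANNNTGT, was in 1 member, *Acat2*, and in 7.90% of genes. The upstream sequence of *Acly* holds no CCAAT before its start site, and its box begins 37 bases after it. These are matches of letters and not measured binding.

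Library totals ranged from 8226528 to 201222288 expected counts, with a median of 24451898. Ribosomal RNA counts above 1 CPM were found in 5 libraries (5C VEH and the DEX columns of 20M, 73M, JW14 and JW81), at 21.6 to 64.0 CPM, and the 4 leukemias with no such library are compared separately where it matters. The 12 T lineage markers had summed levels of 525 to 1315 FPKM in VEH and 548 to 1183 in DEX columns, although single markers such as *Cd7* (median 0.36 FPKM in VEH columns) were low. Summed erythroid markers were 769 FPKM in the VEH and 102 in the DEX column of 73M, and 207 and 55.8 in those of 73A. Summed myeloid markers reached 568 and 328 FPKM in 73A, and 3 of 9 B lineage markers and all 6 adipocyte markers were under 1 FPKM in all 18 libraries. Libraries of 8633 and JW14 were as alike (Pearson's r over genes 0.953 to 0.981) as the 2 libraries of a leukemia (0.927 to 0.990), and values that rest on these leukemias are not fully independent.

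Levels are given as FPKM, counts scaled to merged exon length and to the library total, which allows genes to be set side by side. *Scd2* and *Acly* were the most abundant members, and *Scd1* the least, as the plot of levels by gene shows. Mean levels over 18 libraries were 74.3 ± 36.0 FPKM for *Acly* and 60.4 ± 14.3 for *Scd2* (SD over leukemias, n = 9). Expected counts of tested members were between 31 and 78629 in a library. Some exons are shared with other genes: 18.3% of *Fdft1* exon bases lie opposite *Ctsb*, 26.7% of *Fdps* bases are in *Gm43738* on the same strand, and 12.1% of *Hmgcs1* bases lie opposite *Gm48342*. Reads from the stretches on opposite strands cannot be told apart without strand information, and those from the same strand cannot be told apart with it. In bulk marrow, fewer cells of a type and less RNA per cell cannot be told apart.

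**Figure D1:**
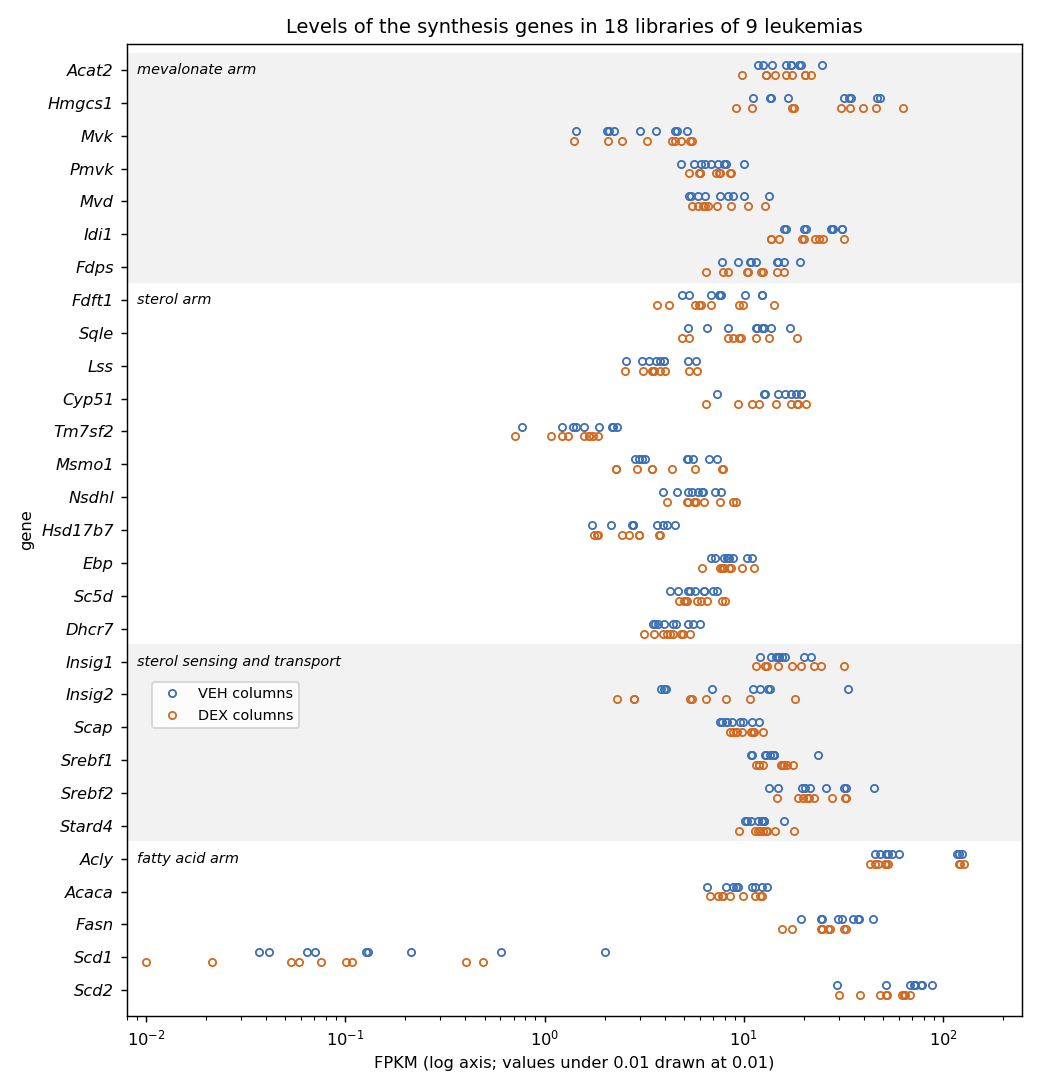
FPKM (log axis) of the 29 genes, grouped by role, in each of 18 libraries, with VEH columns as blue and DEX columns as orange circles. *Acly* splits into libraries between 42.7 and 59.9 FPKM and libraries between 117.4 and 127.8, and *Scd1* lies under 1 FPKM in 17 libraries.

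The first question was how the genes differed between leukemias. Of the 28 members tested, 25 (89.3%) differed between leukemias beyond the spread between the 2 libraries of a leukemia (edgeR quasi-likelihood F test with column name as a term, Benjamini-Hochberg adjusted p under 0.05). Over all 11339 genes tested the share was 82.5%, so most genes of any kind differed and the members' share is close to this background. The 25 were all 7 genes of the mevalonate arm, all 11 of the sterol arm, 3 of 6 in sensing and transport, and all 4 tested in the fatty acid arm. *Insig1* (adjusted p = 0.0990), *Scap* (0.0965) and *Stard4* (0.277) did not pass. The number called was between 23 and 27 when each leukemia was left out in turn.

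The score, log2(FPKM + 1) averaged across the 29 genes, was 3.38 ± 0.21 (SD, n = 9 leukemias). It was lowest in 20M (3.13) and highest in 78A (3.74). The highest level of a member was in 78A for 15 of 29 genes, including 5 of 7 in the mevalonate arm and 7 of 11 in the sterol arm. The lowest was in 20M for 7 genes and in JW14 for 7. The mevalonate score ran from 3.21 in JW14 to 4.15 in 78A, and the sterol score from 2.34 in 20M to 3.09 in 78A. The fatty acid arm had the narrowest range, from 3.89 in 20M to 4.26 in 8633, so that 78A led the sterol pathway but not this arm.

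*Hmgcs1* (ENSMUSG00000093930, chr13:119690379-119708260, plus strand, mm10) encodes the synthase that makes HMG-CoA. It had the widest range of the mevalonate arm, 11.1 to 47.9 FPKM in VEH columns (median 31.8) and 9.18 to 62.7 in DEX columns (median 30.8). The lowest leukemia mean was 11.1 FPKM in 8633 and the highest 55.3 in 78A, a 5.01-fold difference (edgeR adjusted p = 2.9e-06). *Hmgcs1* was at 9.18 to 17.5 FPKM in 5C, 8633 and JW14 and at 16.7 to 62.7 in the other 6 leukemias, so these sets overlapped only through the VEH library of 20M and the DEX library of 5C.

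Downstream, *Mvk* (mevalonate kinase), *Pmvk* (phosphomevalonate kinase) and *Mvd* (mevalonate diphosphate decarboxylase) had mean levels of 3.5, 7.0 and 7.8 FPKM. *Mvk* varied 3.75-fold between the lowest and highest leukemia, *Mvd* 2.31-fold and *Pmvk* 1.71-fold. *Acat2*, the cytosolic thiolase that starts the pathway, was highest in JW14 (23.3 FPKM) and lowest in JW81 (11.8). *Idi1*, the isopentenyl diphosphate isomerase, was at 15.9 to 31.2 FPKM in VEH columns (median 27.3) and 13.7 to 31.8 in DEX columns (median 20.0). *Fdps*, which makes farnesyl pyrophosphate, ranged from 7.12 FPKM in 20M to 17.4 in 78A. *Mvk*, *Idi1* and *Mvd* were thus all highest in 78A, as *Hmgcs1* was, while *Acat2* and *Pmvk* were not.

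Over the 9 leukemia means on the log2(FPKM + 1) scale, the members most like *Hmgcs1* were *Msmo1* (r = 0.96), *Mvk* (r = 0.95) and *Idi1* (r = 0.94). Of 27 other members with a mean of at least 1 FPKM, 24 had a positive r with it and 15 an r over 0.5. *Acly* (r = −0.78), *Acat2* (−0.25) and *Pmvk* (−0.02) had a negative one. These r describe 9 points that share libraries and their depth, 2 of which (8633 and JW14) are alike over all genes.

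In the sterol arm, *Fdft1* (squalene synthase) was at 4.89 to 12.4 FPKM in VEH columns (median 7.56) and 3.67 to 14.2 in DEX columns (median 6.06). *Sqle* (squalene epoxidase) was at 5.26 to 17.1 FPKM (median 11.6) and 4.90 to 18.5 (median 9.46). Both were highest in 78A, and VEH and DEX columns overlapped. *Sqle* varied 3.50-fold between leukemias and *Fdft1* 3.10-fold. *Cyp51*, the lanosterol demethylase, was lowest in 20M (6.89 FPKM) and highest in 78A (19.4). *Lss* (lanosterol synthase), *Msmo1* (sterol C4 methyl oxidase), *Nsdhl* (C4 decarboxylase), *Hsd17b7* (3-keto reductase), *Tm7sf2* (C14 reductase), *Ebp* (sterol isomerase), *Sc5d* (C5 desaturase) and *Dhcr7* (final reductase) had mean levels of 1.54 to 8.48 FPKM. Their highest and lowest leukemias differed by 1.67-fold (*Ebp*) to 2.82-fold (*Msmo1*).

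**Figure D2:**
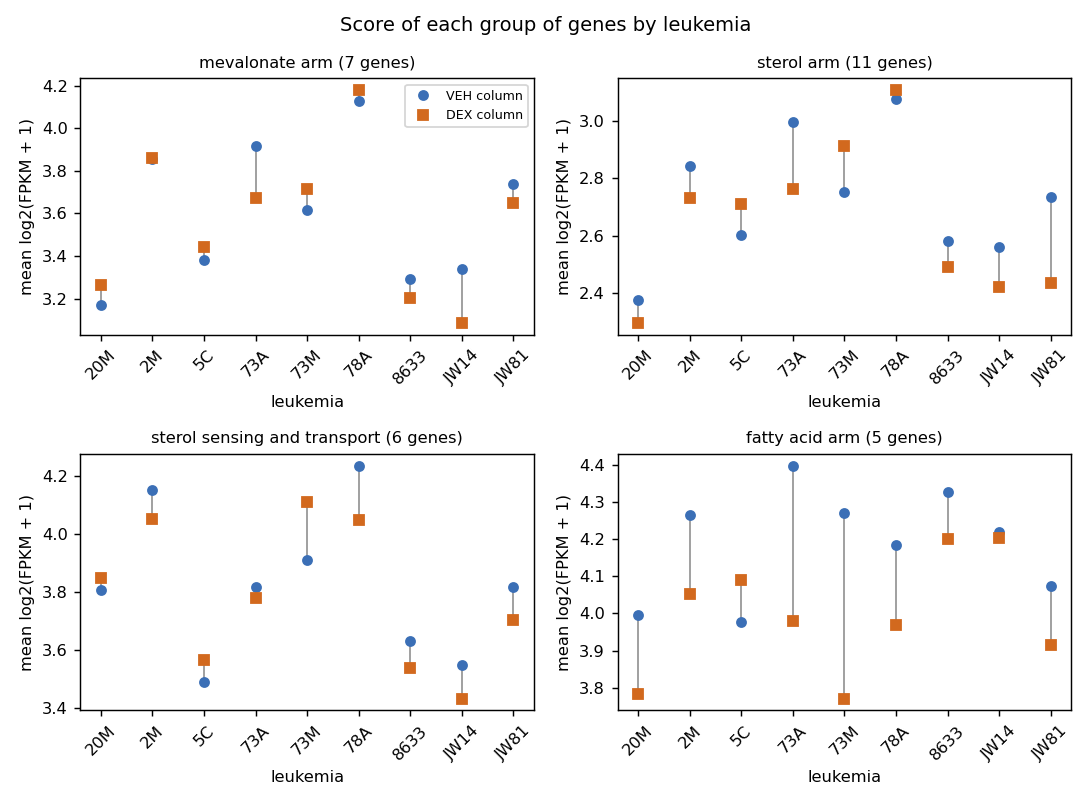
Mean log2(FPKM + 1) of the genes of each role in the VEH (circle) and DEX (square) library of 9 leukemias, joined by a line. Leukemia 78A is highest for the mevalonate and sterol arms, and the DEX library is lower in 8 of 9 leukemias for the fatty acid arm. The fatty acid arm includes *Scd1*, which was under 1 FPKM in 17 libraries.

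Among the sensing genes, *Insig2* varied most between leukemias. *Insig2* (ENSMUSG00000003721, chr1:121304353-121332589, minus strand, mm10) differed 8.13-fold between 8633 (mean 3.16 FPKM) and 2M (25.7; edgeR adjusted p = 2.2e-06). It was at 2.32 to 4.05 FPKM in all libraries of 5C, 8633 and JW14 and at 5.39 to 33.3 in those of the other 6 leukemias, with no overlap. *Srebf2*, whose product acts mainly on sterol genes, was at 13.4 to 45.2 FPKM in VEH columns (median 21.5) and 14.6 to 32.7 in DEX columns (median 21.3). *Srebf1*, whose product acts mainly on fatty acid genes, was at 10.9 to 23.5 FPKM (median 13.5) and 11.5 to 17.7 (median 15.4). Both were highest in 78A. *Stard4*, a cytosolic sterol carrier, and *Scap* varied least of these genes, 1.40-fold and 1.46-fold.

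In the fatty acid arm, *Acly*, which makes cytosolic acetyl-CoA from citrate, had the smallest adjusted p between leukemias of all members (6.9e-08). *Acly* (ENSMUSG00000020917, chr11:100476353-100528000, minus strand, mm10) was at 117.4 to 127.8 FPKM in the 6 libraries of 5C, 8633 and JW14 and at 42.7 to 59.9 in the other 12. The 2 ranges did not overlap. In the same 3 leukemias *Dtx1*, a direct target of Notch, was at 0.040 to 0.29 FPKM, against 41.0 to 155 in the other 6. In leukemia 4638, which is outside the comparison, *Dtx1* was also low (0.18 FPKM in the VEH and 0.39 in the DEX column) while *Acly* was at 47.5 and 44.8 FPKM. *Dtx1* is no member of the list, and this pattern was seen after the values were known.

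*Fasn* (fatty acid synthase) had leukemia means of 20.0 FPKM in 73M to 38.1 in 2M. *Acaca*, the acetyl-CoA carboxylase that makes malonyl-CoA, ranged from 6.66 in JW14 to 12.5 in JW81. The desaturases *Scd1* and *Scd2* make monounsaturated fatty acids, and *Scd2* was by far the more abundant. *Scd1* was at 0.037 to 2.00 FPKM in VEH columns (median 0.13) and 0 to 0.49 in DEX columns (median 0.076). In 3 libraries it had 3 counts or fewer, and in the DEX library of JW14 it had 0, where 3 counts correspond to 0.075 FPKM. With a mean under 1 FPKM it was the 1 member not tested. *Scd2* was lowest in 5C (29.7 FPKM) and highest in 78A (72.8).

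The second question was how the DEX column differed from the VEH column of the same leukemia. The 2 members that differed, *Insig2* and *Scd2*, were both lower in DEX columns. By edgeR's quasi-likelihood test with the leukemia as a block, 0 of 28 members were higher, 2 were lower and 26 did not pass. Over all genes tested, 6.22% were higher and 6.79% lower, so 2 of 28 is near the background. Without adjustment 3 members had p under 0.05 and were higher and 5 were lower, against 15.8% and 15.7% of all genes. DESeq2 called 0 members higher and 3 lower, against 9.02% and 10.1% of all genes. The median log2 fold change was −0.011 over the members and 0.0039 over all genes. The plot of fold changes shows 13 members above 0 and 15 below.

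**Figure D3:**
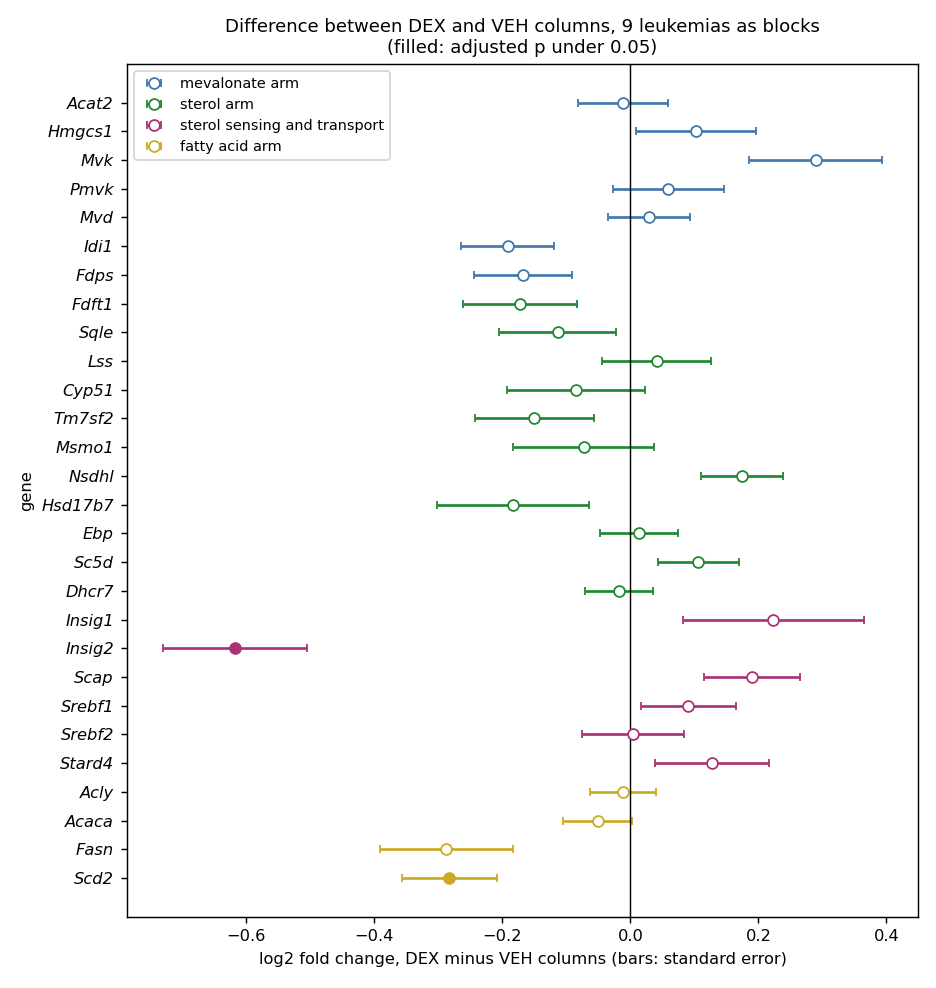
Log2 fold change, DEX minus VEH columns, of the 28 tested members with standard errors, colored by role. Filled points, adjusted p under 0.05, are *Insig2* at −0.62 and *Scd2* at −0.28, and the other 26 lie between −0.29 and 0.29.

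*Insig2* was at 3.84 to 33.3 FPKM in VEH columns (median 11.1) and 2.32 to 18.1 in DEX columns (median 5.48). The ranges of the columns overlapped widely, but within each leukemia the DEX library was the lower, in 9 of 9. The log2 fold change was −0.62 (SE 0.11, edgeR adjusted p = 0.00733), or 1.54-fold lower. As a ratio the difference was largest in JW81, from 13.5 to 5.48 FPKM, and smallest in 73A, from 6.89 to 6.48. The call held when each leukemia was left out (adjusted p 0.00646 to 0.0238). In the 4 leukemias without ribosomal RNA counts the log2 fold change was −0.52 (adjusted p = 0.0745), and in the 5 with them −0.71 (adjusted p = 0.113). With a term for those libraries it was −0.56 (adjusted p = 0.0357). In JW81 and 73M, where the *Insig2* ratio was furthest from 1, summed myeloid markers were 133 and 250 FPKM in the VEH and 33.6 and 69.0 in the DEX columns. In 73A, where *Insig2* differed least, the myeloid sum was also lower in the DEX column (568 and 328 FPKM), and in 2M, where *Insig2* went from 33.3 to 18.1 FPKM, it was 159 and 168. All 6 tested myeloid markers had negative fold changes, and *Itgam* was called lower (log2 −0.47, edgeR adjusted p = 0.0369), a call lost with the term for ribosomal RNA counts (0.131) and when 1 leukemia was left out (up to 0.0818). Their part in the *Insig2* difference was not tested.

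*Scd2* (ENSMUSG00000025203, chr19:44293674-44306864, plus strand, mm10) was at 29.3 to 88.3 FPKM in VEH columns (median 72.1) and 30.1 to 68.2 in DEX columns (median 52.3). It was lower in the DEX library of 8 leukemias and slightly higher in that of 5C (29.3 and 30.1 FPKM). The log2 fold change was −0.28 (SE 0.075, edgeR adjusted p = 0.0312), or 1.22-fold lower. The difference was largest in 73A, from 88.3 to 51.5 FPKM. The call was lost without 20M (adjusted p = 0.0527), 2M (0.0774), 73A (0.0644), 73M (0.0680) or JW81 (0.0602), and without both 73A and 73M (0.130). It was also lost with the term for ribosomal RNA counts (0.105) and in the leukemias without them (log2 −0.39, 0.0745) or with them (−0.21, 0.258). With leukemia 4638 added, where *Scd2* was at 48.8 FPKM in the VEH and 71.5 in the DEX column, the log2 fold change was −0.20 (adjusted p = 0.192). In 73A and 73M, where the *Scd2* difference was largest, the erythroid sums were also lower in the DEX columns. So were the myeloid sums (568 and 328 FPKM in 73A, 250 and 69.0 in 73M) and the B lineage sums (8.27 and 4.08 in 73A, 29.8 and 5.57 in 73M). Their part in the difference was not tested.

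*Fasn* was at 19.4 to 44.4 FPKM in VEH columns (median 31.1) and 15.5 to 32.7 in DEX columns (median 24.8). It was lower in the DEX library of 7 leukemias, while in 5C it was at 19.4 and 26.5 and in JW14 at 31.1 and 32.7. Its log2 fold change of −0.29 was as large as that of *Scd2* but did not pass (SE 0.10, edgeR adjusted p = 0.0864). Without 5C it passed (log2 −0.38, adjusted p = 0.00658), as it did by DESeq2 (0.0389) and with no filter on low genes (0.0335). It did not pass with the term for ribosomal RNA counts (−0.22, edgeR adjusted p = 0.266) or with leukemia 4638 added (−0.24, 0.128). In the leukemias without ribosomal RNA counts it was −0.49 (adjusted p = 0.0238), and in those with them −0.13 (0.632). *Acly* had a log2 fold change of −0.011 (SE 0.052, adjusted p = 0.906) with VEH columns at 45.6 to 124 FPKM (median 55.4) and DEX columns at 42.7 to 128 (median 51.8). *Acaca* had −0.051 (SE 0.054, adjusted p = 0.540). The 2 enzymes ahead of *Fasn* thus gave values near 0.

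**Figure D4:**
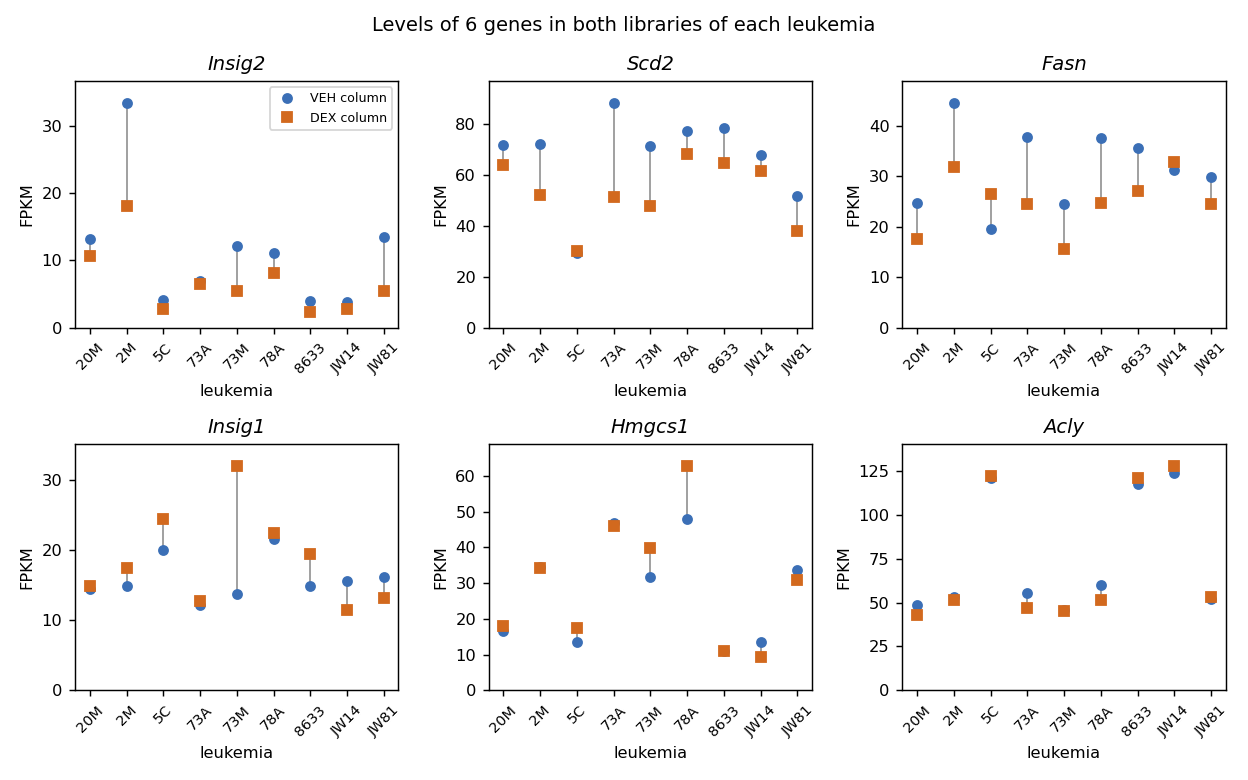
FPKM of 6 members in the VEH (circle) and DEX (square) library of each leukemia, on axes that start at 0. *Insig2* is lower in the DEX library of 9 of 9 leukemias and *Scd2* in 8 of 9, *Insig1* is at 32.0 FPKM in the DEX library of 73M, and *Acly* is near 120 FPKM in 5C, 8633 and JW14 in both libraries.

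In the mevalonate arm the fold changes ran from −0.19 (*Idi1*, SE 0.073, edgeR adjusted p = 0.0959) to 0.29 (*Mvk*, SE 0.10, adjusted p = 0.0849). *Hmgcs1* had 0.10 (SE 0.094, adjusted p = 0.478). *Idi1* and *Fdps* (−0.17, adjusted p = 0.156) were each lower in the DEX library of 8 of 9 leukemias. No member of the arm passed, and 0 did so by DESeq2, with 1 higher and 2 lower at an unadjusted p under 0.05.

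In the sterol arm they ran from −0.18 (*Hsd17b7*) to 0.17 (*Nsdhl*, SE 0.064, edgeR adjusted p = 0.0867), and 7 of 11 were negative. *Fdft1* had −0.17 (SE 0.089, adjusted p = 0.204) and was lower in 7 of 9 leukemias. *Sqle* had −0.11 (SE 0.091, adjusted p = 0.409) and was lower in 6. None of the 11 passed in edgeR or in DESeq2, and *Nsdhl* alone had an unadjusted p under 0.05.

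*Insig1*, a relative of *Insig2* that SREBPs switch on, was at 12.1 to 21.6 FPKM in VEH columns (median 14.9) and 11.5 to 32.0 in DEX columns (median 17.5). It was higher in the DEX library of 7 leukemias, most in 73M (13.7 and 32.0 FPKM), and its log2 fold change of 0.22 did not pass (SE 0.14, edgeR adjusted p = 0.294). Without 73M it was 0.086. *Srebf1* had 0.090 (SE 0.075, adjusted p = 0.424) and *Srebf2* 0.0037 (SE 0.080, adjusted p = 0.980). *Scap* had 0.19 (SE 0.075, adjusted p = 0.107) and passed without 78A (0.0356). *Stard4* had 0.13 (adjusted p = 0.345). Of the 6 sensing genes *Insig2* was the only negative value and the only call.

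The score over all members was 3.42 ± 0.22 in VEH and 3.34 ± 0.21 in DEX columns, a paired difference of −0.078 ± 0.10 (SD, n = 9). It was lower in the DEX library of 7 leukemias, most in 73A (−0.23), and higher in 5C (0.091) and 73M (0.039). The mean over all 11339 genes tested differed by −0.024 ± 0.038 on the same scale and was also lower in 7 leukemias. With totals scaled by TMM the members' difference was −0.036 ± 0.11, and with leukemia 4638 added it was −0.041 ± 0.15. Between leukemias the score spanned 0.61 from lowest to highest, with an SD of 0.21 (n = 9). The mean absolute difference within a leukemia was 0.11. A range over 9 leukemias and a difference between 2 libraries are unlike measures, so their sizes are not compared.

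By role, the difference was −0.040 ± 0.14 for the mevalonate arm, −0.073 ± 0.15 for the sterol arm, −0.037 ± 0.12 for sensing and transport and −0.19 ± 0.19 for the fatty acid arm (SD, n = 9). The fatty acid score was lower in the DEX library of 8 leukemias, with −0.50 in 73M and 0.11 in 5C at the ends. It counts *Scd1* like the other genes, although *Scd1* was under 1 FPKM in 17 libraries and was not tested. *Scd1* itself differed by −1.01 in 73M, so the value of 73M leans on it. In JW14 the score differed by −0.015, and *Scd1*, with 0 counts in the DEX library, by −0.098. The largest differences of this score, in 73M and 73A (−0.42), were in the pairs whose erythroid, myeloid and B lineage sums were lower in the DEX column. The part of those cells was not tested. In the 4 leukemias without ribosomal RNA counts the fatty acid score differed by −0.24 ± 0.12 and in the 5 with them by −0.15 ± 0.23. The first 3 roles had mean differences smaller than their SD.

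A few genes of the same pathways outside the list differed between DEX and VEH columns. Over all genes tested, 6.22% were higher and 6.79% lower by the same edgeR test. In lists this short, 1 call in a direction says little about a list as a whole. Of 8 genes of SREBP processing and degradation, *Mbtps1*, the site-1 protease that makes the first cut in SREBPs, was higher in DEX columns (log2 fold change 0.68, SE 0.17, edgeR adjusted p = 0.0225, 7 of 9 leukemias). *Mbtps2*, the site-2 protease, was lower (−0.20, SE 0.052, adjusted p = 0.0297, 9 of 9). Of 10 tested genes of sterol uptake, transport and storage, *Lrp8*, a lipoprotein receptor, was lower (−0.29, SE 0.061, adjusted p = 0.0126, 9 of 9) and 0 were higher, also at an unadjusted p under 0.05 and by DESeq2.

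Of 6 other sterol enzymes, *Cyb5r3*, a reductase that supplies electrons to desaturases, was higher (0.38, SE 0.089, edgeR adjusted p = 0.0182). Of 12 other fatty acid enzymes 1 was lower, the acyl-CoA synthetase *Acsl3* (−0.31, SE 0.087, adjusted p = 0.0407, 9 of 9), and 0 were higher. At an unadjusted p under 0.05 these counts were 5 lower and 1 higher, and by DESeq2 3 lower and 0 higher, beside the shares of all genes given above for these criteria. Of 4 tested LXR genes, *Lpcat3*, which remodels phospholipids, was higher (0.25, SE 0.073, adjusted p = 0.0460). Of 5 NADPH-supplying enzymes 0 passed in either direction, by edgeR, by DESeq2 or at an unadjusted p under 0.05. Leaving out 1 leukemia took the adjusted p above 0.05 for *Mbtps1*, *Mbtps2*, *Acsl3* and *Lpcat3* (largest value 0.103, for *Lpcat3*), and not for *Lrp8* or *Cyb5r3*. With the term for ribosomal RNA counts all 6 of these genes lost the call, with adjusted p from 0.0514 (*Lrp8*) to 0.142 (*Acsl3*).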

How the data were processed

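Poly(A) RNA from bone marrow was made into TruSeq libraries and sequenced on an Illumina instrument. The authors aligned reads with Bowtie2 (version 2) to mm10 and deposited RSEM expected counts per gene, as named in the submitters' processing notes. The RSEM version, gene annotation and strand setting were not given in the sources used here. No value had been normalized for depth or length.

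Counts were matched to GENCODE M21 (GRCm38) by Ensembl ID. Lengths were found for 37693 of 39017 genes, and FPKM were computed from merged exon length and the library total. Samples were grouped by the leukemia in their titles, and columns by the leukemia, DEX or VEH in their names. Of the 20 columns of values, 0 were left unmapped. The DEX columns of 73A, 2M and 4638 matched a sample in the leukemia only. Expected counts were rounded and tested with edgeR 4.0.16 in R 4.3.3 (TMM, quasi-likelihood, leukemia and column name as terms) over the 11339 genes that averaged 1 FPKM or more. *P* values were adjusted by Benjamini-Hochberg over those genes, with a threshold of 0.05. The design had been written for expected counts, and DESeq2 1.42.0 was an alternative. On simulated counts for these 11339 genes, the DEX minus VEH fit recovered 97% of 4-fold and 79% of 1.5-fold changes with 3.83% false calls. The test between leukemias recovered 96% of genes changed 4-fold in 1 leukemia, with 3.03% false calls. Each simulation changed 200 genes and held no effect of libraries with ribosomal RNA counts. In that between leukemias, all other genes were alike in every leukemia, whereas 82.5% of genes were called in the real data. The simulated rates therefore need not hold for these data.

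The members and lists were chosen with earlier results of these data known. Every member is accounted for, with values in full for those past the threshold in DEX minus VEH and for *Hmgcs1*, *Idi1*, *Fdft1*, *Sqle*, *Insig1*, *Srebf1*, *Srebf2*, *Fasn*, *Scd1*, *Scd2* and *Acly*. From other lists, up to 3 genes past the threshold could be named, those with the largest absolute fold change. Some items are not reported here. Sequences came from RefSeq (GRCm38.p6). Alternatives changed the test, scaling, filter, block, pseudocount, leukemias used and a term for ribosomal RNA counts.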

Additional observations from a re-analysis of the deposited data

Results flagged for a closer look

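The levels and the DEX minus VEH differences of the members and of their score gave 60 sets of 9 values. In 2 of these sets 1 leukemia lay far from the other 8, measured as its gap to the nearest value over the whole range. At a rate of 1 in 20, chance would give about 3 such sets. Both were in leukemia 73M. *Insig1* was higher in the DEX than in the VEH column of 73M by 1.17 on the log2(FPKM + 1) scale, against −0.41 to 0.36 in the other leukemias, and without 73M its fitted log2 fold change was 0.086 in place of 0.22. *Scd1* differed by −1.01 in 73M on that scale, against −0.19 to 0.017 elsewhere. In the same pair, summed erythroid marker FPKM were 769 in the VEH and 102 in the DEX column. Their part in these values was not tested.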

How the results depend on the processing

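Every gene's call rests on 9 pairs of single libraries, which limits small fold changes. Without the leukemia block 8 genes were called in place of 1475, and the number was 654 to 2041 when each leukemia was left out (654 without 20M, 739 without 2M, 716 without 73A, 847 without 73M, 966 without JW81). It was 465 with a term for ribosomal RNA counts, 475 in the leukemias without them, 15 in those with them, and 277 without 73A and 73M, a setting chosen after seeing the data. Members lower in DEX columns numbered 0 without the block and in the leukemias with ribosomal RNA counts. They numbered 1 with 4638 added, with the ribosomal RNA term, in the leukemias without such counts and without 73A and 73M, and 1 to 3 when each leukemia was left out. Members higher numbered 0 to 1 when each leukemia was left out. The score over leukemias was 3.13 with a pseudocount of 0.1 in place of 1.

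*Srebf1* turned to −0.083 in the leukemias without ribosomal RNA counts. *Srebf2*, near 0, was −0.032 with no filter, −0.049 without the block, −0.034 with the ribosomal RNA term, −0.19 in leukemias without such counts and −0.053 to 0.0545 when each leukemia was left out. *Acly*, also near 0, was 0.011 without the block, 0.034 in leukemias with those counts and −0.033 to 0.0071 when each was left out. The causes were not tested. Members called between leukemias were 25 with DESeq2 size factors, 26 with 4638 added and 28 of 29 with no filter.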

Other observations

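Leukemia 4638 had 2 further libraries and was not in the comparisons above other than as an addition. In its DEX column the score over all 29 genes was higher than in its VEH column by 0.29 on the log2(FPKM + 1) scale. The difference was 0.34 for the mevalonate arm, 0.40 for the sterol arm, 0.15 for sensing and transport and 0.17 for the fatty acid arm. *Hmgcs1* was at 23.9 FPKM in the VEH and 37.1 in the DEX column, *Scd2* at 48.8 and 71.5, and *Sqle* at 13.1 and 21.5. *Insig2* was at 3.66 and 3.25 FPKM, and *Acly* at 47.5 and 44.8. *Scd1*, which was under 1 FPKM in 17 of the 18 other libraries, was at 3.0 and 3.8. These 2 libraries also held the highest summed myeloid marker FPKM of the series, 1383 in the VEH and 952 in the DEX column, and the lowest summed T lineage FPKM, 352.5 and 269.2. Summed erythroid markers were 368 in the VEH and 746 FPKM in the DEX column, and summed B lineage markers 31.2 and 50.1. The part of these cells in the score was not tested.

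Among the other lists, all 11 tested genes of fatty acid oxidation had positive fold changes (log2 0.026 to 0.23, median 0.10), as did 5772 of all 11339 genes. Of the 11, 0 passed the threshold of edgeR's quasi-likelihood test, against 6.22% of all genes called higher. An unadjusted p under 0.05 was found for 2, against 15.8% of all genes, and DESeq2 called 1 (*Hadha*), against 9.02%. Of 12 proliferation genes, *Ccnb1* (log2 fold change 0.26, SE 0.068, edgeR adjusted p = 0.0311) and *Aurkb* (0.32, SE 0.057, adjusted p = 0.00627) were higher in DEX columns and 0 were lower. Over all genes tested, 6.22% were higher and 6.79% lower. At an unadjusted p under 0.05, 5 were higher and 0 lower, against 15.8% and 15.7% of all genes. DESeq2 called 2 higher and 0 lower, against 9.02% and 10.1%. The list went both ways, with 7 positive and 5 negative fold changes (log2 −0.15 to 0.32). The call of *Ccnb1* was lost with the term for ribosomal RNA counts (adjusted p = 0.0731) and when 1 leukemia was left out (up to 0.0871). Of 6 glucocorticoid-induced genes tested, *Klf9*, *Ddit4*, *Zbtb16* and *Dusp1* were higher in the DEX column of all 9 leukemias, with a list median of 1.20 on the log2 scale. The call of *Zbtb16* was lost when 1 leukemia was left out (adjusted p up to 0.0577).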
